A study of Mus musculus with 8 samples.

Results

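The histone genes of the mouse were followed here in the striatum of female mice with 1 intact copy of Brd2. All probes of the array that carry no control flag and whose gene name begins with Hist1h, Hist2h, Hist3h, Hist4h, H2af or H3f3 were taken, which gave 74 probes of 60 gene names, out of 39429 probes of 30175 gene names. Of these, 55 probes belong to the clustered Hist genes and 19 to the H2af and H3f3 replacement genes. By histone class there are 6 probes of H1, 29 of H2A, 12 of H2B, 13 of H3 and 14 of H4. The names are those of the array design, and current RefSeq symbols are given in brackets where the accession allowed it.

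The heterozygous samples (Brd2+/-, 4 samples) carry a gene-trap vector in 1 copy of Brd2, and the wildtype samples (4 samples) carry none. Both are adult females from matings of Brd2+/- females with Brd2+/- males, backcrossed for 7 generations onto C57Bl/6J, and the striatum was dissected and snap frozen. The trap is present in every cell of the heterozygous mice, so a difference in striatum need not arise there. The tissue label names the prefrontal cortex beside the striatum, and no source used here says whether each sample is 1 mouse.

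Histones are the proteins around which DNA is wound: H2A, H2B, H3 and H4 form the core of the nucleosome, and H1 binds the linker between nucleosomes. The clustered genes supply new chromatin during S phase, and their typical short messages lack introns and end in a conserved stem-loop in place of a poly(A) tail. Of 55 clustered probes, however, 12 start at base 600 or later of a longer listed transcript, that of Hist1h2be at base 2375. Which message such probes read was not tested. The replacement genes are expressed throughout the cell cycle, yield polyadenylated messages and are the main source of new histone in neurons, which do not divide. Brd2 belongs to the BET family, whose bromodomains bind acetylated lysines of histones, those of H4 among them, and take part in transcription.

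The coding sequences of one class are close to identical between genes, and this limits what a 60-base probe can tell apart. Of 5 H4 probes that overlap one another in the message, 4 are shown because the results below return to them. Each is given 5′ to 3′ with mm9 coordinates from the array files, and capitals mark bases that differ from the Hist1h4k probe over the stretch the pair shares. Hist1h4k and Hist1h4c were picked by the naming rule, and Hist1h4j and Hist1h4d were chosen after their values were seen.
Hist1h4k (H4c12), chr13:21842279-21842338, minus strand: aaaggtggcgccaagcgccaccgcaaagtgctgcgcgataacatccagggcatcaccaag
Hist1h4c (H4c3), chr13:23790223-23790282, minus strand: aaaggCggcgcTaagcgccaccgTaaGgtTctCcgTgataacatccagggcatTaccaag
Hist1h4j (H4c11), chr13:21826989-21827048, plus strand: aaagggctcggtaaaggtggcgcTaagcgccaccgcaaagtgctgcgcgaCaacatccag
Hist1h4d (H4c4), chr13:23673515-23673574, plus strand: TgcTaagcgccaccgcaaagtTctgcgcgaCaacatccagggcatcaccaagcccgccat
The Hist1h4c probe differs from the Hist1h4k probe at 8 of 60 shared bases, the Hist1h4d probe at 4 of 52 and the Hist1h4j probe at 2 of 48. The array files list 2 RefSeq genes for the Hist1h4k probe (H4c12 and H4c2), and 3 for Hist1h4c (H4c1, H4c3 and H4c6).

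The same holds at the end of the H2A coding sequence, where 8 probes overlap. The pair of genes below is shown beside Hist1h2ak because their signs differ although their probes are alike; both were chosen after their values were seen. Capitals mark bases that differ from the Hist1h2ak probe, and each sequence ends with the stop codon.
Hist1h2ak (H2ac15), chr13:21845304-21845363, minus strand: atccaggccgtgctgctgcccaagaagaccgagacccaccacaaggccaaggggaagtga
Hist1h2an (H2ac22), chr13:21878695-21878754, minus strand: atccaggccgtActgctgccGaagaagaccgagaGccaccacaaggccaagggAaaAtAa
Hist2h2aa2 (H2ac19), chr3:96049837-96049896, plus strand: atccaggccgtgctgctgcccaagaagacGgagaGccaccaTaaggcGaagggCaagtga
Hist1h2an differs at 6 and Hist2h2aa2 at 5 of 60 bases. In all, 13 histone probes fall into 2 groups that overlap by at least 30 bases with at least 80% identity, and 15 of the 74 probes are listed with several RefSeq genes. Such probes are not independent readings, and each may report several genes.

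Levels are log2 intensities after normalization, with the dye effect removed, and a difference is the heterozygous mean minus the wildtype mean on that scale, given with its standard error from limma (SE). A level belongs to its own probe and is not set against another probe. Each array held 2 samples of 1 genotype, in Cy3 (replicates 1 and 3) and Cy5 (replicates 2 and 4). Between 36.9% and 74.8% of probes were well above background per heterozygous sample, and between 42.7% and 68.1% per wildtype sample, with the lower shares in Cy3. The number of arrays limits the precision of every difference. The 3′ probe of Brd2 measured 11.79, 11.96, 12.44 and 11.83 in heterozygous samples, against 12.97, 13.11, 12.52 and 12.82 in wildtype samples. The groups did not overlap, and heterozygous samples averaged 55.4% of the wildtype mean (limma adjusted p = 0.39). An exact two-sided permutation test gave p = 0.0286, the smallest that 4 against 4 allow. It treated samples that share an array as independent. The library labelled heterozygous replicate 3 stood at 74.9% of the wildtype mean, close to wildtype replicate 3. The label of that heterozygous library is therefore in doubt, and results are given with and without it where it matters. The other tested Brd2 probe, at base 1265 and near background, went the other way: it read 8.32, 8.09, 8.57 and 8.15 in heterozygous samples, against 7.62, 8.23, 8.06 and 8.10 in wildtype samples. Its groups overlapped (difference 0.29, SE 0.17, limma adjusted p = 0.645), so the lower Brd2 level and the doubt about replicate 3 rest on the 3′ probe alone. Of the striatal projection neuron markers, 11 of 12 had a tested probe, as did 7 of 7 cortical excitatory neuron markers.

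Histone probes tended to read lower in heterozygous samples, but none passed the threshold. Of the 74 probes, 60 were well above background in at least 4 of 8 samples and were tested, with p-values adjusted over all 25325 probes tested on the array. None of the 60 reached an adjusted p under 0.05 in limma (smallest 0.374), where 0.00395% of all tested probes did, a single probe of Btbd9 (difference 1.82, SE 0.14, adjusted p = 0.0343; named after its value was seen). At an unadjusted p under 0.05 there were 12 histone probes, or 20%, against 8.88% of all probes. Of these, 9 were lower and 3 higher in heterozygous samples, where all probes gave 4.83% lower and 4.06% higher. The difference was negative for 46 of 60 histone probes, or 76.7%, against 53.7% of all probes. The median difference was -0.19 over the histone probes, against -0.02 over all tested probes. As striatum is a mixed tissue, fewer cells of a type and less RNA per cell cannot be told apart.

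Both dyes gave a negative difference for 34 of the 60 probes, against 31% of all probes, and a positive one for 9 of the 60, against 25.4%. Among the 51 histone probes measured in all 8 samples, the genotypes did not overlap for 8 (15.7%), of which 6 were lower in heterozygous samples. The share of all probes without overlap was 8.6%, and 5.22% were lower without overlap. The clustered probes had 35 of 42 negative differences (median -0.20), and the replacement probes had 11 of 18 (median -0.13). Without heterozygous replicate 3, a calculation added after seeing the data, 18 histone probes were lower at an unadjusted p under 0.05 and 1 was higher, against 6.16% of all probes lower. The smallest adjusted p among histone probes was then 0.202.

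**Figure D1:**
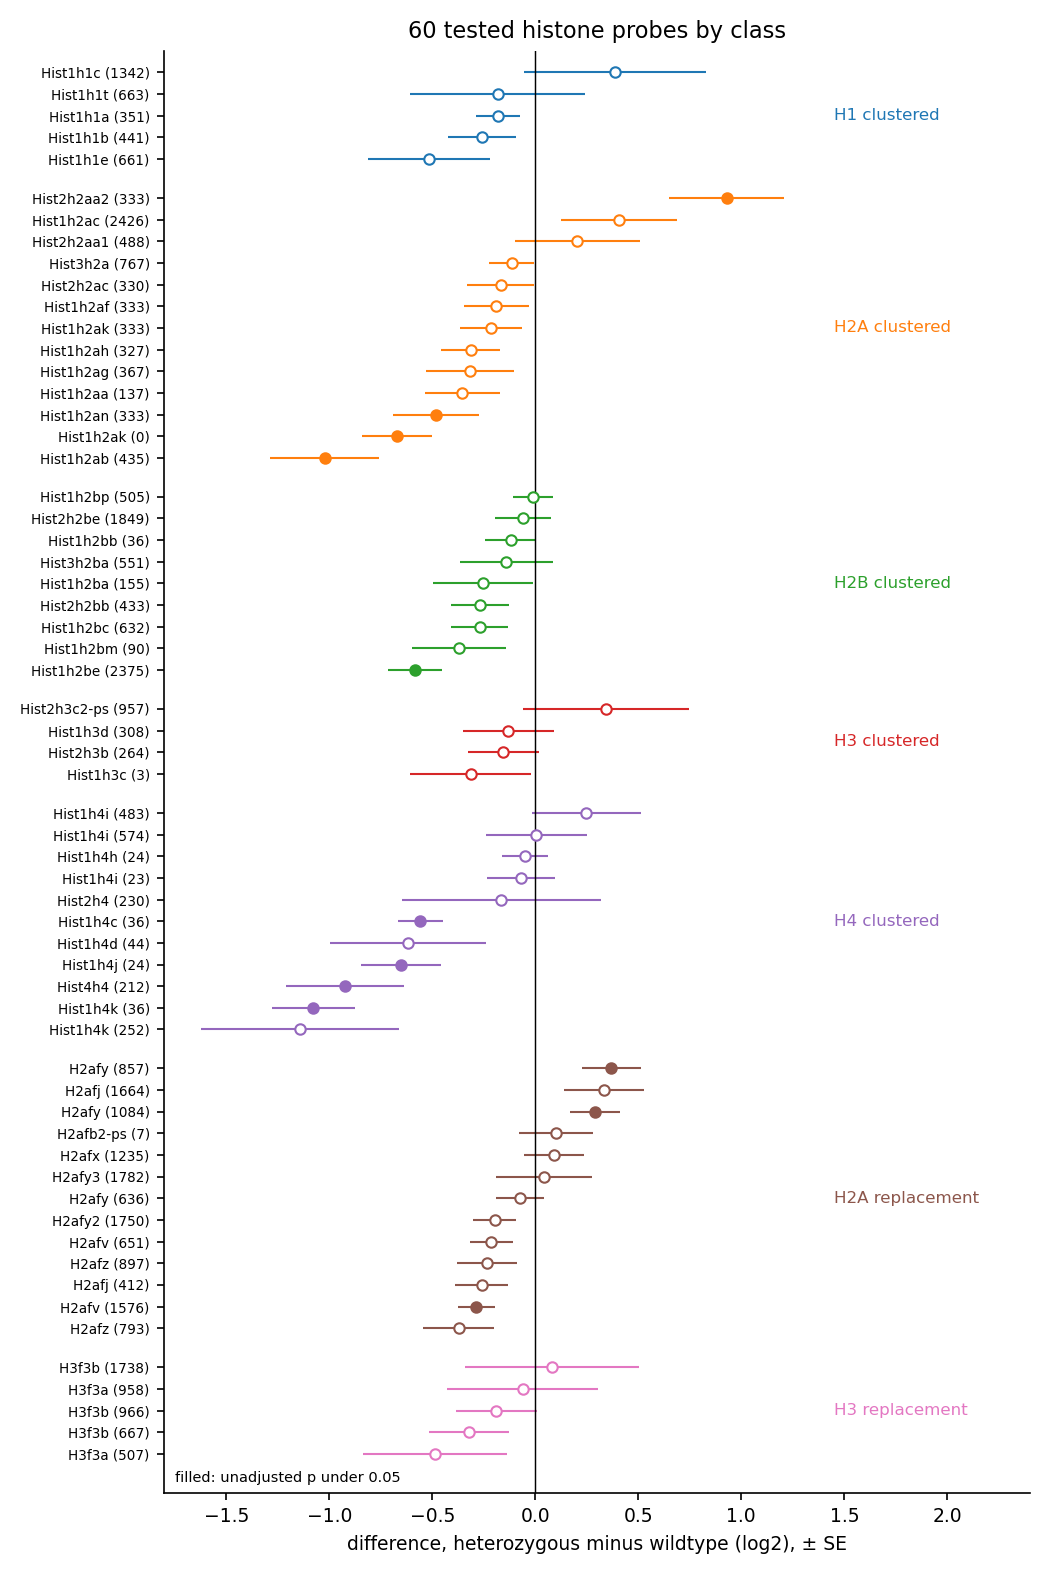
Difference between heterozygous and wildtype samples (log2, with SE) for the 60 tested histone probes, grouped by class; the number after each name is the base of the message at which the probe starts, and filled points have an unadjusted p under 0.05. Negative values mean lower in heterozygous samples, and 46 of 60 points lie left of 0.

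The H4 probes had the largest median difference of the 5 classes, -0.56 over 11 tested probes. Of these, 9 were negative (81.8%, against 53.7% of all probes), and 4 had an unadjusted p under 0.05 (36.4%, against 8.88%). The 5 overlapping H4 probes, which are not independent readings, were all negative (median -0.62) and held 3 of those 4. Hist1h4k, at its probe starting at base 36, read 9.28, 8.91, 9.52 and 8.93 in heterozygous samples, against 10.14, 10.44, 9.85 and 10.51 in wildtype samples. All heterozygous values lay below all wildtype values, with heterozygous replicate 3 and wildtype replicate 3 nearest each other. The difference was -1.08 (SE 0.20, limma adjusted p = 0.374), which put the heterozygous mean at 47.4% of the wildtype mean. Hist1h4c, near background, read 7.90, 7.84, 7.91 and 7.66 in heterozygous samples, against 8.28, 8.39, 8.34 and 8.54 in wildtype samples. The groups were again apart, and here heterozygous replicate 3 lay with the other heterozygous samples. Its difference was -0.56 (SE 0.11, limma adjusted p = 0.374), and it was well above background in 2 heterozygous and 3 wildtype samples.

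The second Hist1h4k probe (chr13:21842063-21842122, base 252, listed with 4 RefSeq genes) had the largest H4 difference and the widest spread. It read 10.87, 12.99 and 11.57 in heterozygous replicates 1, 3 and 4, its spot in replicate 2 being marked as an outlier, against 13.13, 12.99, 12.55 and 13.17 in wildtype samples. Heterozygous replicates 1 and 4 were below all wildtype values and replicate 3 was among them, giving a difference of -1.14 (SE 0.48, limma adjusted p = 0.561). Leaving out 1 sample at a time moved it between -1.73 (without heterozygous replicate 3) and -0.68 (without heterozygous replicate 1). The next probes were named after their values were seen. Hist1h4j read 7.91, 7.84, 8.34 and 7.75 in heterozygous samples, against 8.73, 8.81, 8.16 and 8.74 in wildtype samples. Hist4h4 (H4f16) on chromosome 6, listed with a single RefSeq gene, read 9.77, 9.51, 10.64 and 9.70 in heterozygous samples, against 10.59, 10.92, 10.46 and 11.34 in wildtype samples. In both, replicate 3 was the heterozygous sample that overlapped wildtype; the differences were -0.65 (SE 0.19) for Hist1h4j and -0.92 (SE 0.29) for Hist4h4, with limma adjusted p of 0.469 and 0.478. Hist1h4d read 10.43, 9.94, 11.01 and 10.03 in heterozygous samples, against 11.25, 11.53, 9.96 and 11.14 in wildtype samples. Here wildtype replicate 3 lay below all heterozygous samples but replicate 2, and the difference of -0.62 (SE 0.38, limma adjusted p = 0.652) was 0.12 in Cy3 and -1.35 in Cy5.

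Other H4 probes did not share this. The 3 probes of Hist1h4i gave -0.07, 0.01 and 0.25, and Hist1h4h (H4c8) gave -0.05 (SE 0.11). Hist2h4 (H4c14), at base 230, gave -0.16 (SE 0.48), with 0.52 in Cy3 and -0.85 in Cy5. Averaged over the 11 probes and set relative to the wildtype mean, H4 stood at -0.58, -0.63, 0.03 and -0.58 in heterozygous samples, against 0.01, 0.17, -0.37 and 0.18 in wildtype samples. Heterozygous replicates 1, 2 and 4 lay below every wildtype sample, whereas replicate 3 lay above wildtype replicates 1 and 3. Replicate 3 was the highest heterozygous sample for 9 of the 10 H4 probes measured in all 4 heterozygous samples, against 34.6% of all probes. The median H4 difference was -0.60 without it. Leaving out 1 sample at a time moved that median between -0.69 (without wildtype replicate 3) and -0.38 (without wildtype replicate 2). The dyes differed as well: the H4 median was -0.01 among Cy3 samples and -0.85 among Cy5 samples. The Cy3 samples include heterozygous replicate 3 and also wildtype replicate 3, the lowest wildtype sample. Of all histone probes, 5 of 60 had a difference between dyes at an unadjusted p under 0.05 in limma, against 2.73% of all probes, and none after adjustment (smallest adjusted p 0.976).

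**Figure D2:**
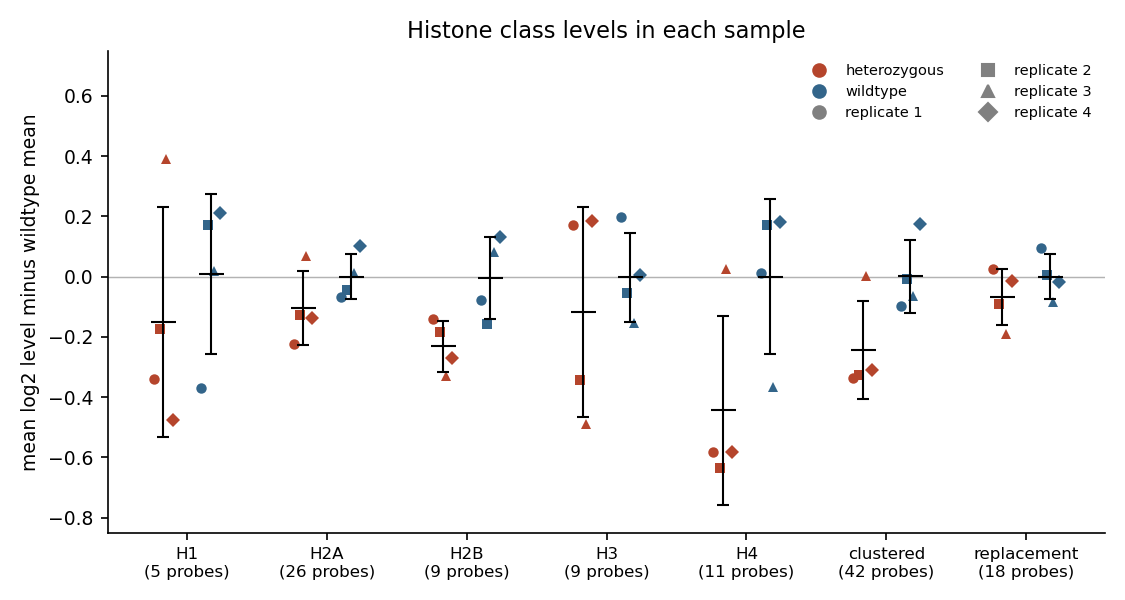
Mean level of the tested probes of each histone class in each sample, as log2 relative to the wildtype mean with the dye effect removed; symbols mark replicates, and bars are the mean with SD over 4 samples. For H4, 3 heterozygous samples lie between -0.63 and -0.58 and heterozygous replicate 3 lies at 0.03.

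H2A comprises 13 tested clustered probes, of which 10 were negative (median -0.21), and 13 of the replacement forms, described further on. Hist1h2ab (H2ac4; chr13:23843392-23843451, base 435) read 7.96, 8.06, 9.03 and 8.09 in heterozygous samples, against 9.10, 9.32, 9.09 and 9.72 in wildtype samples. Replicate 3 was just below the lowest wildtype value, and the other heterozygous samples were about a log2 unit lower. The difference was -1.02 (SE 0.27, limma adjusted p = 0.417), or 49.2% of the wildtype mean, and -1.32 (SE 0.14, adjusted p = 0.202) without replicate 3; without heterozygous replicate 4 it was -0.82. Hist1h2ak at its first coding bases (chr13:21845637-21845696, listed with H2ac15 alone) read 8.89, 9.43, 9.21 and 8.87 in heterozygous samples, against 9.61, 9.63, 10.04 and 9.82 in wildtype samples. The groups did not overlap, and the difference was -0.67 (SE 0.17, limma adjusted p = 0.413).

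The 8 overlapping probes at the end of the H2A coding sequence were well above background in all samples, and 7 of them had a negative difference (median -0.24, range -0.48 to 0.93). The Hist1h2ak probe printed above gave -0.21 (SE 0.15), with 13.62, 13.83, 14.09 and 13.85 in heterozygous samples, against 13.88, 13.89, 14.23 and 14.25 in wildtype samples. The groups overlapped, as for most of these probes. Hist1h2an read 11.86, 12.22, 12.65 and 12.13 in heterozygous samples, against 12.41, 12.49, 12.90 and 12.98 in wildtype samples, a difference of -0.48 (SE 0.21, limma adjusted p = 0.559). The exception was Hist2h2aa2, with 13.48, 13.46, 14.28 and 13.57 in heterozygous samples, against 12.84, 13.13 and 12.33 in wildtype replicates 1 to 3, whose replicate 4 spot was marked as an outlier. Its difference was 0.93 (SE 0.28, limma adjusted p = 0.478), the only positive one among clustered probes at an unadjusted p under 0.05. Hist2h2aa1 (H2ac18), of the same locus on chromosome 3, gave 0.20 (SE 0.30).

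All 9 tested H2B probes had a negative difference (median -0.26). Hist1h2be (H2bc6; chr13:23675610-23675669, base 2375) read 10.40, 9.97, 10.02 and 10.22 in heterozygous samples, against 10.69, 10.66, 10.67 and 10.92 in wildtype samples. No heterozygous value reached the wildtype range, and replicate 3 was among the lower heterozygous values. The difference was -0.58 (SE 0.13, limma adjusted p = 0.39), or 66.7% of the wildtype mean, and it was -0.47 in Cy3 and -0.69 in Cy5. The others were smaller, with Hist1h2bc (H2bc4) at -0.27 (SE 0.14) and Hist2h2bb (H2bc18) at -0.27 (SE 0.14). Averaged over the class, H2B stood at -0.14, -0.19, -0.33 and -0.27 in heterozygous samples, against -0.08, -0.16, 0.08 and 0.13 in wildtype samples, so that the groups touched. Without replicate 3, 7 of the 9 were negative.

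**Figure D3:**
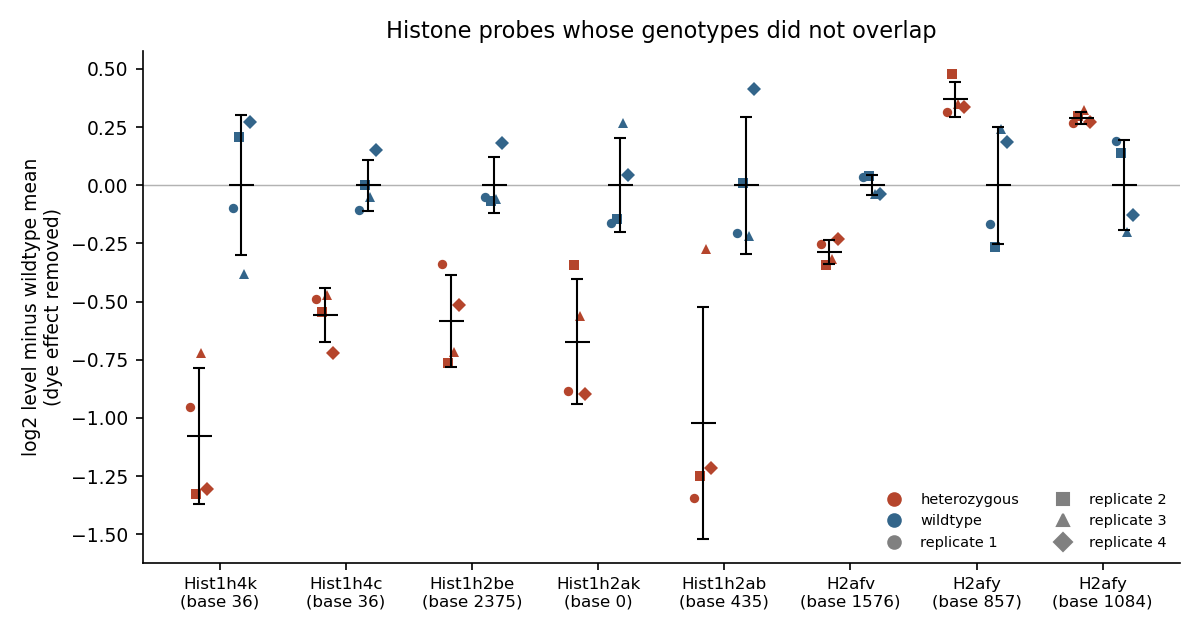
Level in each sample (log2 relative to the wildtype mean, dye effect removed) for the 8 histone probes whose heterozygous and wildtype values did not overlap; symbols mark replicates, and bars are the mean with SD over 4 samples. The clustered probes and H2afv lie lower in heterozygous samples, and 2 probes of H2afy lie higher.

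No H3 or H1 probe had an unadjusted p under 0.05. Of the 9 tested H3 probes 7 were negative (median -0.15), and of the 5 tested H1 probes 4 were (median -0.18). Of the 4 tested clustered H3 probes 3 were negative, with Hist1h3c (H3c3) at -0.31 (SE 0.29) and Hist1h3d (H3c4), listed with 4 RefSeq genes, at -0.13 (SE 0.22). Over all 9 H3 probes, the class level was 0.17, -0.34, -0.49 and 0.19 in heterozygous samples, against 0.20, -0.05, -0.15 and 0.01 in wildtype samples, and the groups overlapped. Among the linker histones, Hist1h1e (H1f4) read 7.69, 8.53, 8.97 and 7.69 in heterozygous samples, against 8.69, 8.73, 8.56 and 8.96 in wildtype samples. Replicate 3 was the highest value of all samples, and the difference of -0.52 (SE 0.30, limma adjusted p = 0.635) became -0.84 (SE 0.22, adjusted p = 0.331) without it; without heterozygous replicate 4 it was -0.19. Hist1h1c (H1f2), the only H1 probe well above background in all samples, gave 0.38 (SE 0.44) with 3 wildtype values, and -0.67 among Cy5 samples alone. Hist1h1a (H1f1) gave -0.18 (SE 0.11) near background. For all 5 H1 probes replicate 3 was the highest heterozygous sample, and without it the H1 median was -0.34, with 2 of 5 lower at an unadjusted p under 0.05.

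Among the replacement genes, H2afv (H2az2) and H2afz (H2az1) encode the forms of H2A.Z, which sits in nucleosomes around transcription starts. H2afv at base 1576 read 10.09, 10.003, 10.03 and 10.11 in heterozygous samples, against 10.38, 10.38, 10.31 and 10.31 in wildtype samples. The groups were apart with a small spread, and the difference was -0.29 (SE 0.09, limma adjusted p = 0.478) in all samples and -0.29 within either dye. Its second probe, at base 651, gave -0.21 (SE 0.11). H2afz gave -0.37 (SE 0.17) at base 793 and -0.24 (SE 0.14) at base 897, with overlapping groups.

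H2afy (Macroh2a1) encodes macroH2A1, an H2A with a large additional domain that is found in silent chromatin, and was the one gene of the rule, among probes measured in all 8 samples, with higher values apart from wildtype. At base 857 it read 9.57, 9.74, 9.61 and 9.59 in heterozygous samples, against 9.10, 8.996, 9.50 and 9.45 in wildtype samples. At base 1084 it read 11.31, 11.34, 11.36 and 11.31 in heterozygous samples, against 11.23, 11.18, 10.84 and 10.91 in wildtype samples. Neither pair of groups overlapped, and the differences were 0.37 (SE 0.14, limma adjusted p = 0.518) and 0.29 (SE 0.12, adjusted p = 0.545). A further probe, at base 636, gave -0.07 (SE 0.12), so the probes of this gene disagree. They are listed with different transcripts of the gene, and each base is counted in its own transcript. Whether this bears on the disagreement was not tested.

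The other replacement probes had overlapping groups. H2afx (H2ax), phosphorylated at DNA breaks, gave 0.09 (SE 0.15), H2afy2 (Macroh2a2) -0.20 (SE 0.10), and H2afy3 0.04 (SE 0.23). The probes of H2afj (H2aj) gave -0.26 at base 412 and 0.33 at base 1664. The 5 probes of H3f3a and H3f3b, which encode the replacement H3 that is laid down outside S phase, ranged from -0.48 to 0.08. H2afb2-ps gave 0.10 (SE 0.18).

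Of the 14 probes not tested, 6 were well above background in no sample: those of Hist1h2ae, Hist1h3a, Hist1h2bq, Hist1h3g and Hist1h1d, and a second probe of Hist4h4. The other 8, a second probe of Hist2h4 and those of Hist1h3f, Hist1h2bg, Hist1h3i, Hist1h4m, Hist3h2bb-ps, Hist2h2ab and H2afb1, were so in 1 to 3 samples. These levels are limited by background, so no difference is given.

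Position in the genome went with the sign in part. All 9 tested probes at the end of the chromosome 13 cluster below 22 Mb (mm9) were negative (median -0.48), and 18 of 22 at 22 Mb and beyond were (median -0.22). The chromosome 3 genes named Hist2h had 5 of 8 negative (median -0.11). Position in the message and sharing between genes moved along with this: the 33 clustered probes that start before base 600 had a median of -0.26, and the 9 that start later had -0.11. Probes listed with several RefSeq genes had 13 of 14 negative (median -0.43), and those listed with 1 gene had 33 of 46 (median -0.17). These shares were not compared by a test, and which of them matters was not tested.

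The stem-loop that ends clustered histone messages was searched in the probe sequences as GGNNCTTTTCAGNNCC on the probe strand. It was found in 5 of 55 clustered probes (9.09%), in 0 of 19 replacement probes, and in no other probe among the 39429 on the array (5 in all, 0.0127%). It is shown because it marks probes at the last bases of the mature message, with the paired stem in capitals and the loop in lower case.
Hist2h2bb (H2bc18), within chr3:96074056-96074115, plus strand: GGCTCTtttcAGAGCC
Hist1h4m, within chr13:21903960-21904019, plus strand: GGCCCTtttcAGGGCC
The Hist2h2bb form also stands in the probes of Hist2h2aa1, Hist1h3a and Hist1h3i. Of these 5 probes, Hist2h2aa1 and Hist2h2bb were tested and gave 0.20 and -0.27. The labelling protocol names amplification with T7 RNA polymerase, and no source used here gives its primer, so how fully messages without a poly(A) tail entered the measurement is unknown.

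Promoters differed between the classes in a way that the measured values did not choose. RefSeq sequences from 250 bases before to 50 after the start (GRCm38.p6) were available for 50 of the 60 gene names, as 51 promoters. Matches on both strands were counted, each motif by itself, so that matches may share bases, and a match is a description of these letters only. CGGACC, the core of the element read by the H4 activator Hinfp, was in 8 of 8 clustered H4 promoters (100%), in none of the 14 clustered H2A, 10 H2B and 6 H1 promoters, and in 8.25% of all 32851 promoters. It was also in 1 of 5 clustered H3 promoters (20%) and in 3 of 8 replacement promoters (37.5%). ATTTGCAT, the octamer bound by Oct1 (Pou2f1), was in 50% of clustered H2A and 60% of clustered H2B promoters, against 1.74% of all. CCAAT was in all clustered H1, H2A, H2B and H3 promoters, in 25% of those of H4 and in 37.4% of all. TATAA was in 83.7% of clustered and 12.5% of replacement promoters, against 24.9% of all.

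The 130 bases before the start are shown for the pair of H4 genes with the smallest p, with matches to these motifs in capitals, that to CGGACC being read from the opposite strand.
Hist1h4k (H4c12), GRCm38.p6 chr13:21750554-21750683, minus strand: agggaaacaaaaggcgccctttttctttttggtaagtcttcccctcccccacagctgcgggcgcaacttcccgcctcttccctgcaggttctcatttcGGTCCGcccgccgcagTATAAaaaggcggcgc
Hist1h4c (H4c3), GRCm38.p6 chr13:23698459-23698588, minus strand: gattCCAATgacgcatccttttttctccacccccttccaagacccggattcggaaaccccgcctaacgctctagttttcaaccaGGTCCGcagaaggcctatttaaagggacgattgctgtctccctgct
All 8 H4 promoters hold CGGACC, those of genes with differences near 0 (Hist1h4i, Hist1h4h) included, so the match does not separate the H4 probes by their values.

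**Figure D4:**
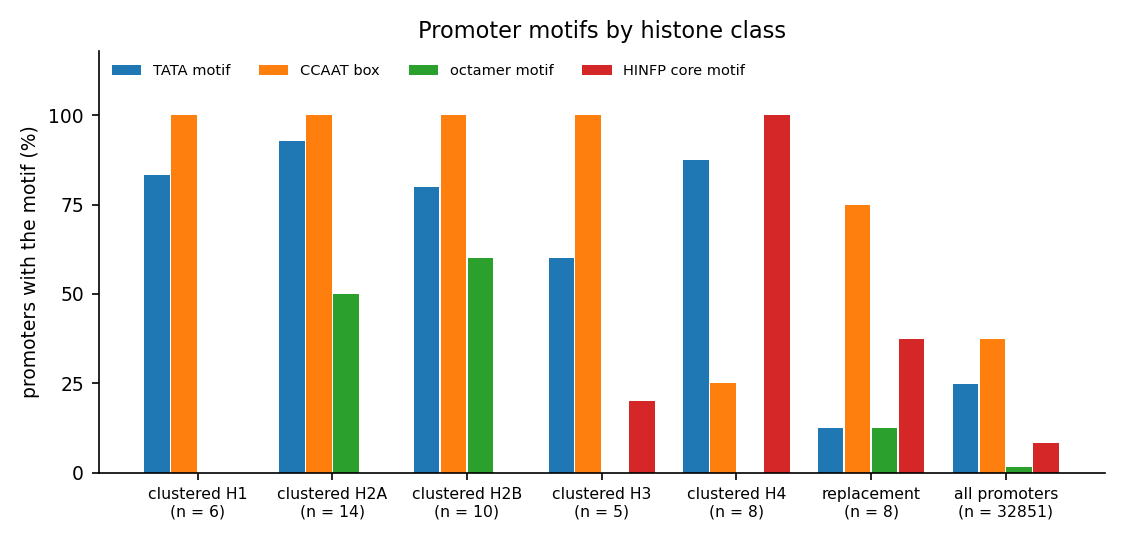
Share of promoters (%) that hold each motif, by histone class, for replacement genes and for all RefSeq promoters; n is the number of promoters. CGGACC (HINFP core motif) is in 100% of clustered H4, 20% of clustered H3 and 37.5% of replacement promoters, and in 8.25% of all.

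The genes that make and handle histones were read from lists chosen with earlier results of these data known. In these lists and those of cell markers, each gene was read by its tested probe of highest mean level. Other probes of these genes are not shown and may differ. Of the 17 genes of histone transcription and 3′ end processing 15 were tested, 7 lower and 8 higher in heterozygous samples (median 0.05), with none at an unadjusted p under 0.05 and none past the threshold in limma. Sympk, a scaffold of the cleavage complex, gave 0.31 (SE 0.15), and Cpsf3, the nuclease that cuts histone pre-mRNA, gave -0.40 (SE 0.20). Hinfp gave 0.05 (SE 0.11) and the stem-loop binding protein Slbp 0.16 (SE 0.23), both named for their role. Of 16 tested replication-coupled chaperones 9 were lower (median -0.03). Chaf1b, a subunit of the assembly factor CAF-1, read 9.14, 9.22, 9.24 and 9.03 in heterozygous samples, against 9.51, 9.52, 9.35 and 9.46 in wildtype samples, without overlap (-0.30, SE 0.10, limma adjusted p = 0.49). Another CAF-1 subunit of the list, Chaf1a, and Cdan1, a partner of the chaperone Asf1, were apart in the opposite direction, at 0.23 (SE 0.12) and 0.22 (SE 0.10). Rbbp4, also a CAF-1 subunit, gave 0.05 (SE 0.19) with overlap. Ssrp1, of the chaperone FACT, gave -0.41 (SE 0.15) with 3 heterozygous values.

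Of 15 genes for depositing variant histones 8 were lower (median -0.03). Cabin1, a partner of the H3.3 chaperone Hira, read 11.33, 11.11, 11.06 and 11.59 in heterozygous samples, against 11.03, 10.68, 10.25 and 10.29 in wildtype samples. These groups did not overlap (0.71, SE 0.21, limma adjusted p = 0.469), while Anp32e, which removes H2A.Z, gave 0.63 (SE 0.33) with overlap. Of 4 tested histone genes outside the name rule 1 was lower and 3 were higher (median 0.17). H1f0, the linker histone of cells that have stopped dividing, read 8.32, 7.99, 8.32 and 8.39 in heterozygous samples, against 7.90, 7.61, 7.22 and 7.77 in wildtype samples. It was higher without overlap (0.63, SE 0.17, limma adjusted p = 0.426), whereas H1foo, known from oocytes, gave -0.88 (SE 0.36) with overlap. Both were near background: H1f0 was well above it in 3 heterozygous and 2 wildtype samples, and H1foo in 2 and 3. Of 12 tested genes of cycling cells 8 were lower (median -0.09), with Gmnn, an inhibitor of replication licensing, at -0.45 (SE 0.16) and Pcna, the replication clamp, at -0.22 (SE 0.10). Gmnn was well above background in only 2 heterozygous and 2 wildtype samples.

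No marker of the cells in the dissected tissue passed the threshold in limma (smallest adjusted p 0.374), but some lists lay to one side. All 7 cortical excitatory neuron markers were higher in heterozygous samples (median 1.43), and their mean level relative to the wildtype mean was 2.30, 1.46, 1.18 and 0.81 in heterozygous samples, against -0.25, 0.80, -0.36 and -0.19 in wildtype samples. All 11 striatal projection neuron markers were lower (median -0.42), at 0.03, -0.77, -1.10 and -0.18 in heterozygous samples, against 0.10, -0.11, -0.03 and 0.03 in wildtype samples. Choroid plexus and ependyma markers stood at -0.92, 0.25, 1.78 and 0.54 in heterozygous samples, against -0.25, -0.04, 0.21 and 0.07 in wildtype samples, and were highest in replicate 3. Oligodendrocyte markers were also highest there, at 0.43, with 3 other heterozygous values from -0.23 to 0.01 and wildtype values from -0.11 to 0.11. All 4 tested blood cell markers were lower (median -0.39, 2 at an unadjusted p under 0.05), at -0.27, -0.09, -0.52 and -0.87 in heterozygous samples, against 0.09, -0.08, -0.18 and 0.14 in wildtype samples. Of 5 oligodendrocyte precursor markers 4 were higher (median 0.30), and the groups overlapped in the mean level of the list. Progenitor markers had 3 of 7 lower (median 0.02), and the medians were -0.02 for astrocytes, -0.15 for microglia and 0.07 for endothelial cells and pericytes. The part of these markers in the histone differences was not tested.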

How the data were processed

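RNA of striatum from 4 heterozygous and 4 wildtype samples was labelled with Cy3 or Cy5 and put on 4 arrays (1 slide, 1 scan), each with a pair of samples of the same genotype, per the labels and the file headers. Spot intensities were extracted by the authors with Agilent Feature Extraction 10.7.3.1 (array design 026655), as the file headers state. A deposited value table gives a ratio of each spot's background-subtracted median intensity to the median of its own column, which is 1 in each, as found by setting it against the scanner values; it is not log-transformed, and it served as an alternative. The deposited intensities were turned into log2 values here: limma 3.58.1 (R 4.3.3; statmod 1.5.0) was run with normexp background correction (offset 50, background medians), loess within each array and then Aquantile across arrays, and channels were split. Control spots (1377 of 43020) and spots marked as outliers (230 to 978 per sample) were left out, and spots of a probe were averaged.

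Probes well above background in at least 4 of 8 samples were tested by lmFit and eBayes on genotype and dye, the array being a random block (correlation -0.0117, prior degrees of freedom 2.87), and Benjamini-Hochberg adjustment over all 25325 probes at 0.05. Brd2 also had an exact permutation test over the samples, which does not take the shared arrays into account. Each array held 1 genotype, so effects of single arrays and genotype cannot be fully told apart. The design text calls the replicates biological; the p-values reflect only how much these samples vary. Gene names are those of the files, with current symbols by accession from RefSeq GRCm38.p6; probe coordinates are mm9. Promoter sequences are from RefSeq.

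The members and lists were chosen with earlier results of these data known. Each gene of a related or marker list was represented by its tested probe of highest mean level alone. Genes named were Brd2; tested histone probes whose genotypes did not overlap, to at most 10; the 2 probes with the smallest p and the 1 with the highest mean in each class; further probes of those genes; all tested H2af and H3f3 probes; and from each related list the 2 members of smallest p. Hist1h3c, Hist1h3d, Hist1h4d, Hist1h4h, Hist1h4i, Hist1h4j, Hist2h4, Hist4h4, Hist1h2an, Hist2h2aa1, Hist2h2aa2, Hinfp, Slbp, Chaf1a, Rbbp4, Cdan1 and Btbd9 were named with their values known. The alternatives were other settings of background correction, normalization, the value table, filter, probe choice, blocks, dye, variance model and threshold, and leaving out each sample. On simulated data with the levels and spreads of 23852 probes of this comparison, the fit recovered 69% of 100 probes changed 2-fold and 94% of 100 changed 4-fold, with 10 false calls. The simulated noise was drawn separately for every probe and sample, without variation shared between probes or within an array. These shares therefore do not tell how many such changes would be called in the real data, where 1 of 25325 probes passed. Figures were drawn with matplotlib 3.10.9.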

Additional observations from a re-analysis of the deposited data

Results flagged for a closer look

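The highest or lowest of 4 samples was checked for standing apart from the other 3 of its genotype, by its gap divided by the group's range against Dixon's critical value of 0.829. Of 71 groups checked (named probes and class levels), 7 stood out, and chance gives about 1 in 20. The groups are not independent, as the class levels share probes with one another and with the named probes.

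Of these, 5 concern the library labelled heterozygous replicate 3. Its mean level over all tested histone probes was -0.056 relative to the wildtype mean, with the other heterozygous samples between -0.26 and -0.23. Over clustered probes it was 0.0016, against -0.33 to -0.31 in the others, and over H4 probes 0.026, against -0.63 to -0.58. Hist1h2ab read 9.03 in it, with the others between 7.96 and 8.09, and Hist2h2bb read 7.62, with the others between 7.19 and 7.25. This library also had the highest Brd2 value among heterozygous samples and the lowest share of probes well above background (36.9%).

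Wildtype samples gave 2 more. Hist1h2be read 10.92 in wildtype replicate 4, with the others between 10.67 and 10.69, and H2afb2-ps read 6.92 in wildtype replicate 1, with the others between 7.46 and 7.51.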

How the results depend on the processing

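No histone probe passed the adjusted threshold under any alternative run, and the difference of the 3′ Brd2 probe was negative in all 26 alternative fits of that probe (-1.08 to -0.63); the mean of both Brd2 probes gave -0.28. The median over the histone probes stayed negative in all 27 (-0.27 to -0.10), and so did the medians of H2A, H2B, H3, H4 and the clustered genes. Unadjusted p under 0.05 gave 12 histone probes and 2250 of all probes, and adjusted p under 0.10 gave 2 of all probes. The 1 probe of the whole array past the threshold was lost (0) with loess alone, the deposited value table, no filter, the brightest probe per gene name and Cy3 samples alone. The clustered median was -0.36 with the scanner software's processed signals. The H4 median was -0.012 in Cy3 and -0.85 in Cy5 samples alone; in Cy5 the H1 median was -0.67 and the H2B median -0.11. With well above background in all 8 samples, H1 was left with 1 probe (0.40). The replacement median was 0.017 with loess alone, -0.074 without a filter, -0.19 with the all-sample filter, -0.21 with the brightest probe and -0.0784 with the mean of each gene's probes. The cause of these shifts was not tested.

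None of the single probes whose sign turned was called in any fit. Processed signals gave 0.00746 for H2afy (base 636) and -0.024 for H2afx. Loess alone gave 0.10 for H2afy (base 636) and 0.28 for H3f3a (base 958), which was 0.14 with outlier spots kept and 0.031 in Cy3. H3f3b (base 1738) was -0.067 in Cy3, and the mean of both H2afj probes, which differ in sign (-0.26 and 0.33), was 0.037. In Cy5, H3f3b (base 667) was 0.17, Hist1h1c -0.67, H2afy (base 636) 0.069, H2afb2-ps -0.19 and H2afy3 -0.40.

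Leaving out 1 sample at a time gave 0 to 1 calls over all probes and a histone median of -0.23 to -0.18. The replacement median ran from -0.24 to -0.038. Turning signs, the ranges were -0.11 to 1.09 for Hist1h1c, -0.18 to 0.0025 for H2afy (base 636), -0.24 to 0.46 for H3f3b (base 1738), -0.43 to 0.28 for H3f3a (base 958), -0.061 to 0.25 for H2afb2-ps and -0.19 to 0.34 for H2afy3. Without heterozygous replicate 3, added after seeing the data, 43 of 60 histone probes were lower, and 19 had an unadjusted p under 0.05, 18 of them lower.

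Replicate numbers are shared between genotypes, but the deviations of same-numbered samples correlated at 0.154, -0.306, -0.19 and -0.267, so the numbers do not pair the samples. With the replicate number as a block in place of dye, the histone median was -0.19, and 0 histone probes and 0 of all probes passed. Dim probes limit precision: 14 of 74 histone probes were not tested. The tested probes that were well above background in only 4 or 5 of 8 samples included those of Hist1h4c, Hist1h1a, Hist2h2bb and H2afb2-ps. H3f3b (base 1738) and Hist1h4i (base 23) were among them too.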
